A study of Canis lupus familiaris with 33 samples.

Results

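The genes described here are 33 genes of monocytes, macrophages and granulocytes in canine bladder cancer, chosen by symbol and not by a cutoff on their values. Of these, 29 were found among the 25096 genes of the analysed TMM table and all 29 were tested. The other 4, CD14, CCR1, LST1 and STAB1, were not analysed here. Macrophages and the monocytes they come from enter tumors, where they engulf debris, present antigen and release signals to the other cells. They can be followed in bulk tissue RNA through genes that few other cells use: a growth factor receptor (CSF1R), a lineage transcription factor (SPI1), complement and scavenger receptors, adaptors of immune receptors, lysosomal proteases and chemoattractant receptors. The 29 genes are not specific to macrophages: CSF3R is best known in neutrophils, ITGAX in dendritic cells, and LAPTM5, PLEK and FGR are shared with other white blood cells.

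RNA sequencing was carried out on 29 canine invasive urothelial carcinomas (iUC), each a cystoscopic biopsy of a different untreated dog, and on 4 samples of normal bladder mucosa (normals A, B, C and D) dissected from dogs put down for reasons unrelated to the bladder. The labels give no genotype, breed or treatment within a group, and all libraries were sequenced together. Each value below is a log2 of a normalized level with the gene's median across the 33 samples taken away, so it places a sample against the middle of the series and says nothing of how abundant a gene is beside another. The total count of each library is not known.

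The paper states that all tumors were high grade and that nearly all their cells were epithelial. Its normals were the urothelial layer, stripped from the bladder wall. By their RNA, both groups were still mixtures of cells. Of the 9 urothelial genes in the table, 6 were called higher in tumors and 1 lower (KRT20). Of all genes tested, 10.7% were called higher and 45.8% lower, by the rule given with the first comparison. The mean value of the 5 smooth muscle genes ran from 4.74 to 6.75 in the normals and from -1.23 to 3.58 in the tumors, and that of the 7 fibroblast genes from 2.11 to 2.80 in the normals and from -2.21 to 2.05 in the tumors; 5 of 5 and 6 of 7 were called lower in tumors. The share of 467 olfactory receptor genes, which are known chiefly from the nose, that lay above their lowest value was 99.4% to 99.8% in the normals and 6.21% to 91.9% in the tumors. The part of tissue make-up in the results on myeloid genes was not tested. Tissue make-up and the way of sampling cannot be told apart from the groups. The olfactory receptor share was entered as a covariate, with the values given below. It was higher in every normal than in any tumor, so that model separates the share from the group poorly. In bulk RNA a gene can be lower because fewer cells of a type are present or because each holds less of its RNA, and these cannot be told apart either. One tumor, Za, held the highest value among tumors of 17 of the 29 genes, so counts and partner pairs across tumors are also given without it.

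The first comparison asked which myeloid genes differed between iUC and normal mucosa. As a group they did not move one way. CD68, CTSS and LAPTM5 were higher in tumors, MARCO, ADGRE1 and ITGAM were lower, and 23 of the 29 were not called. The call required an adjusted p of at most 0.05 by limma with Benjamini-Hochberg adjustment over 24471 genes, and at least a 2-fold change. By the same rule 10.7% of all genes tested were called higher, and 45.8% were called lower. For the 29 genes the median log2 fold change was 0.28, with 18 above 0 and 11 below, against -0.84 for all genes tested and -0.0093 for genes whose median lies above their shared lowest value. In the DESeq-normalized table the split was 1 higher and 3 lower, with CTSS and LAPTM5 no longer called.

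**Figure D1:**
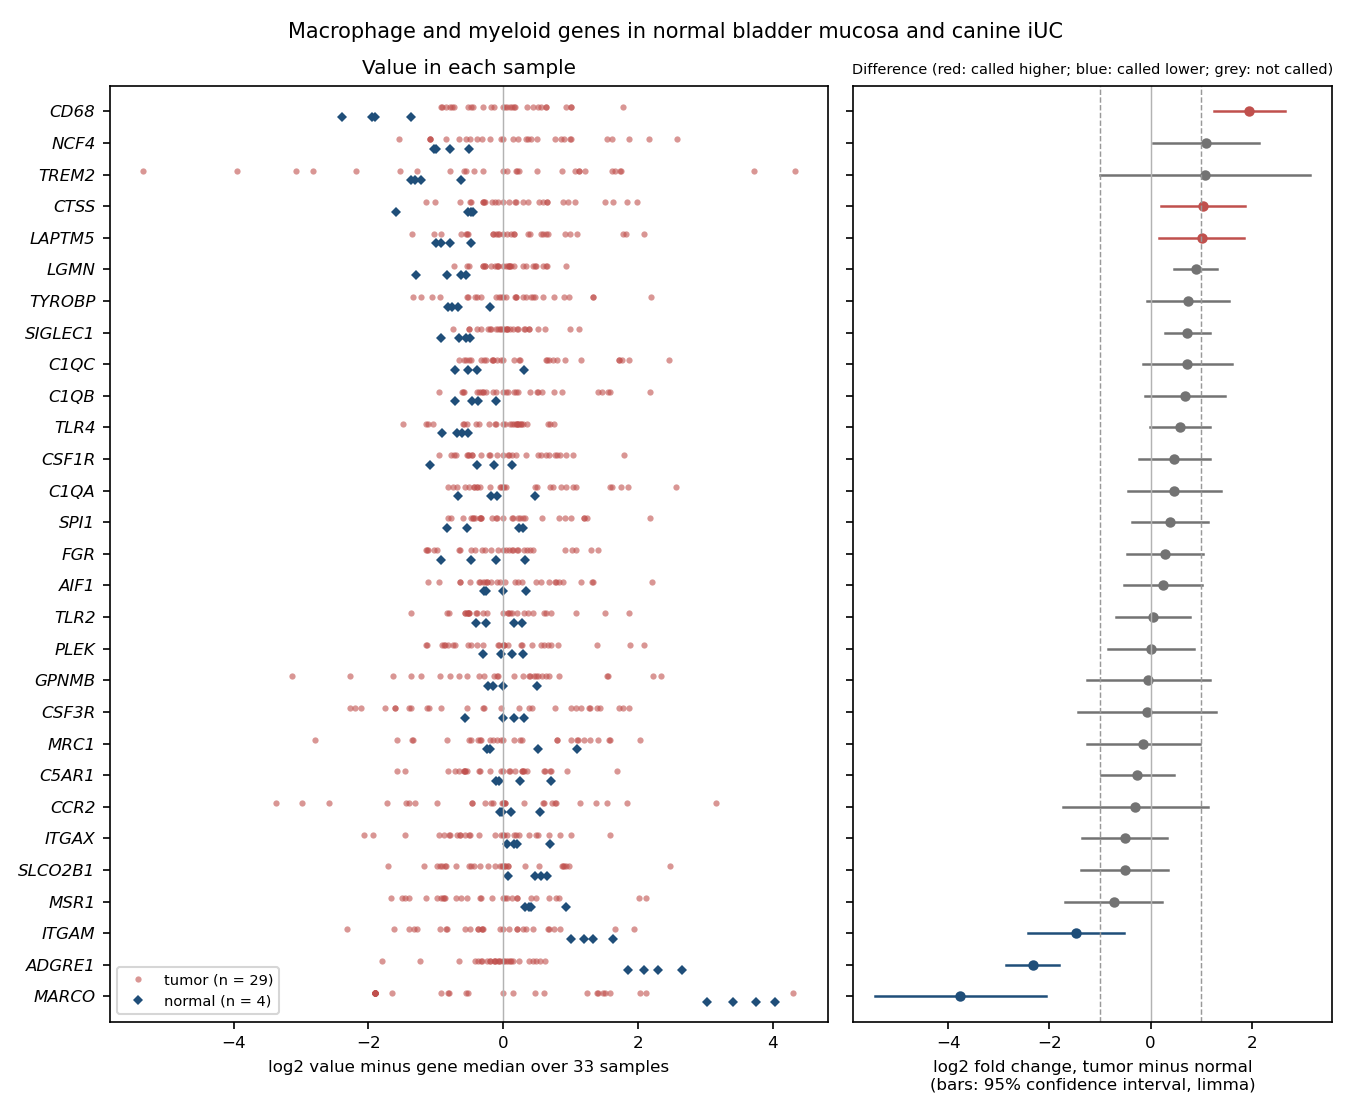
Left, the log2 value of each of the 29 genes in every sample, relative to the gene's median over 33 samples (blue diamonds, 4 normals; red points, 29 tumors). Right, the log2 fold change of tumors over normals with its 95% confidence interval; dashed lines mark a 2-fold change. CD68 is the one gene with all tumors to the right of all normals and ADGRE1 the one with all tumors to the left, while most genes show normals inside the range of the tumors.

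Among the genes grouped here as lineage and general macrophage genes, CD68 and ADGRE1 moved in opposite directions. CD68 (ENSCAFG00000016641) encodes a lysosomal glycoprotein that is abundant in macrophages. Its values were -1.36, -1.94, -1.91 and -2.39 in normals A to D, and in tumors they ran from -0.92 through a median of 0.05 to 1.78. All 29 tumors lay above all 4 normals, an arrangement seen in 7.63% of genes tested. The log2 fold change was 1.95 (SE 0.34, adjusted p = 7.29e-06, limma), or 3.87-fold. ADGRE1 (ENSCAFG00000018571) encodes the adhesion receptor known in the mouse as F4/80, a classical macrophage marker of that species. It measured 2.65, 2.08, 1.86 and 2.29 in the normals and -1.79 to 0.62 in the tumors, with a median of -0.065. All 29 tumors lay below all 4 normals, which was the case for 28.5% of genes tested. The log2 fold change was -2.33 (SE 0.26, adjusted p = 8.03e-10), or 5.02-fold lower. Both calls were retained with the olfactory receptor share as a covariate, in the DESeq-normalized table, without tumor Za and without any single normal. With that covariate the log2 fold change of ADGRE1 was -1.58 and that of CD68 was 2.82.

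The other lineage genes were not called. CSF1R (ENSCAFG00000018219), the receptor through which CSF1 and IL34 keep macrophages alive, lay at 0.13, -0.39, -0.13 and -1.09 in the normals and from -0.95 to 1.80 in the tumors, with a median of 0.076. No tumor fell below all of the normals, 12 rose above all of them, and the log2 fold change was 0.47 (95% confidence interval -0.23 to 1.17, adjusted p = 0.218, limma). SPI1, the transcription factor PU.1 that directs myeloid differentiation, had a log2 fold change of 0.38 (interval -0.37 to 1.13), and AIF1, a calcium-binding protein of macrophages, one of 0.24 (interval -0.53 to 1.02).

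Complement C1q and the scavenger receptors differed mainly through MARCO. MARCO (ENSCAFG00000004913) is a receptor with a collagen-like stalk that binds bacteria and particles. It stood at 3.03, 3.40, 3.75 and 4.04 in the normals and from -1.90 to 4.30 in the tumors, with a median of -0.55. The lowest figure is a value shared by 10 tumors, at which the level could not be resolved, and 28 of 29 tumors lay below all normals. Tumor Da6 alone exceeded them. The log2 fold change was -3.76 (SE 0.83, adjusted p = 0.000162, limma), and it was -2.89 with an adjusted p of 0.0538 once the olfactory receptor share entered the model.

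The 3 chains of C1q, the recognition molecule of the classical complement pathway that tissue macrophages make, had log2 fold changes of 0.47 (C1QA), 0.68 (C1QB) and 0.73 (C1QC), with adjusted p-values of 0.357, 0.117 and 0.129. C1QC lay at 0.31, -0.53, -0.38 and -0.72 in the normals and from -0.65 to 2.46 in the tumors. Normal A was the highest normal for each chain, and the tumors spread on both sides of it. SIGLEC1, the sialic acid receptor CD169, measured -0.55, -0.66, -0.49 and -0.92 in the normals and -0.74 to 1.13 in the tumors, with a median of 0.049. Its difference of 0.73 (SE 0.22, adjusted p = 0.00348, limma) was under 2-fold, although 26 of 29 tumors lay above all normals. MSR1 and MRC1, the scavenger receptor CD204 and the mannose receptor CD206, had log2 fold changes of -0.73 (interval -1.69 to 0.23) and -0.15 (interval -1.27 to 0.97).

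Of the integrins, ITGAM (ENSCAFG00000016881), the alpha chain of the adhesion and complement receptor CD11b/CD18, was lower in tumors. Its normals lay at 1.63, 1.34, 1.19 and 1.00 and its tumors from -2.31 through a median of -0.30 to 1.94. Thus 27 of 29 tumors were below all normals and 2 were above all of them. The log2 fold change was -1.47 (SE 0.47, adjusted p = 0.00588, limma), and with the olfactory receptor share as a covariate it was -0.94 with an adjusted p of 0.273. ITGAX, the alpha chain of CD11c/CD18, whose gene is next to ITGAM on chromosome 6 of the RefSeq assembly UU_Cfam_GSD_1.0, had a log2 fold change of -0.51 (interval -1.35 to 0.33).

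Of the 4 genes of the lysosome and of lipid handling, CTSS was called higher in tumors. CTSS (ENSCAFG00000012086), the protease cathepsin S that trims the invariant chain of class II molecules, stood at -0.46, -0.52, -0.47 and -1.60 in the normals and from -1.14 to 1.99 in the tumors, with a median of 0.18. The log2 fold change was 1.04 (SE 0.41, adjusted p = 0.0232, limma); without normal D, the lowest sample, it was 0.76 with an adjusted p of 0.145, and without tumor Za it was 0.99, just under the 2-fold line. With the olfactory receptor share as a covariate it was 1.32 with an adjusted p of 0.0748. LGMN, the asparaginyl protease legumain, lay at -0.54, -0.83, -0.63 and -1.29 in the normals and from -0.74 to 0.93 in the tumors, with a median of 0.065. In 28 of 29 tumors it exceeded all normals, and its difference of 0.89 (SE 0.21, adjusted p = 0.000366, limma) was under 2-fold. GPNMB, a glycoprotein of lipid-laden macrophages, and SLCO2B1, an organic anion transporter, differed by -0.046 (interval -1.27 to 1.18) and -0.52 (interval -1.38 to 0.34).

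Signalling genes gave one call that stood close to the fold threshold. LAPTM5 (ENSCAFG00000011247), a lysosomal membrane protein of white blood cells that tunes receptor signalling, measured -0.48, -0.78, -0.99 and -0.93 in the normals and -1.35 to 2.09 in the tumors, with a median of 0.11. Its log2 fold change of 1.01 (SE 0.41, adjusted p = 0.0291, limma) was 0.94 without tumor Za, and the adjusted p was 0.0597 without normal B, 0.0777 without normal C and 0.0749 without normal D. With the olfactory receptor share as a covariate the difference was 1.32 with an adjusted p of 0.0778. NCF4, the p40 subunit of the phagocyte NADPH oxidase, lay at -0.51, -0.99, -1.02 and -0.78 in the normals and from -1.54 to 2.58 in the tumors. It differed by 1.10 (SE 0.51) with an adjusted p of 0.0554, and by 2.43 with an adjusted p of 0.00562 in the model holding the olfactory receptor share, where it was called.

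TREM2, a lipid receptor of macrophages and microglia, was the most variable of the 29 genes over the tumors. It stood at -0.63, -1.22, -1.30 and -1.37 in the normals, and from -5.35 in tumor 16 through a median of 0.19 to 4.33 in tumor Za. The SD over tumors was 2.09, above that of 98.3% of genes tested, and the log2 fold change of 1.08 had an SE of 1.02 and an adjusted p of 0.346. TYROBP, the adaptor DAP12 that carries the TREM2 signal, differed by 0.74 (interval -0.072 to 1.54, adjusted p = 0.0966). PLEK, a substrate of protein kinase C, and FGR, a SRC family kinase of myeloid cells, differed by 0.0034 and 0.28.

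The pattern recognition and chemoattractant receptors gave no call. TLR4, the receptor of bacterial lipopolysaccharide, lay at -0.52, -0.60, -0.69 and -0.91 in the normals and from -1.48 to 0.75 in the tumors, with a log2 fold change of 0.58 (interval -0.0096 to 1.17, adjusted p = 0.073, limma). TLR2, which senses bacterial lipoproteins, differed by 0.052. CCR2, the CCL2 receptor that brings monocytes out of the blood, measured -0.021, 0.11, -0.050 and 0.55 in the normals and ran from -3.37 in tumor 12 to 3.15 in tumor Da6. The difference was -0.30 with a wide interval of -1.74 to 1.14. For C5AR1, the receptor of the complement fragment C5a, and CSF3R, the receptor of the neutrophil growth factor G-CSF, the log2 fold changes were -0.26 and -0.070.

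Myeloid genes outside the 29 were described from lists. Of 19 other myeloid genes in the table, 2 were called higher and 2 lower, with a median log2 fold change of 0.21. Among all genes tested, 10.7% were called higher and 45.8% lower. The largest rise was in CEBPB, a transcription factor of the acute phase response, at 1.94 (SE 0.27, adjusted p = 1.47e-07, limma), and the largest fall was in LYVE1, a hyaluronan receptor of lymphatic vessels and of some resident macrophages, at -3.30 (SE 0.65, adjusted p = 3.81e-05). CTSD was the other gene that rose and NLRP3 the other that fell. PTPRC, the CD45 antigen of all white blood cells, differed by 0.69 with an adjusted p of 0.165.

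Granulocyte and mast cell genes were described in the same way. Among 12 granulocyte genes 6 were called lower (MPO, CAMP, CTSG, MMP8, CCR3 and IL5RA) and 1 higher (S100A8), with a median of -1.28; with 45.8% of all genes called lower, this share is near the background. Their mean value was 1.13 to 1.90 in the normals and -1.38 to 1.49 in the tumors. MMP8, a collagenase of neutrophil granules, fell the most, by 4.76 on the log2 scale (SE 0.89, adjusted p = 1.59e-05, limma), with 5 tumors at its lowest value, whereas S100A8, a calcium-binding protein of neutrophils and of stressed epithelium, rose by 1.96 (SE 0.86, adjusted p = 0.042). Of 4 mast cell genes 3 fell, CPA3 the most with a log2 fold change of -3.08, and of 5 dendritic cell genes 2 fell, BATF3 the most at -1.55. The part of granulocytes and mast cells in the lower values of ITGAM and MARCO was not tested.

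Of 13 ligands and growth factors that act on myeloid cells, 2 were higher and 2 lower, against 10.7% and 45.8% of all genes tested. CCL2, the monocyte chemoattractant, lay at -1.05, -1.24, -1.51 and -1.32 in the normals and from -1.80 to 3.69 in the tumors, with a median of 0.33 and a log2 fold change of 1.83 (SE 0.59, adjusted p = 0.00681, limma). CX3CL1, the membrane-bound chemokine fractalkine, showed the largest rise at 2.83 (SE 0.81), and CCL3 the largest fall at -2.28 (SE 0.77). CSF3 was also lower, with 19 tumors at its lowest value. CSF1 and IL34, the ligands of CSF1R, differed by -0.30 and 0.32 with adjusted p-values of 0.411 and 0.42.

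The second set of results concerns how the 29 genes varied among the tumors. The SD over tumors had a median of 0.83 against 0.64 for all genes tested, and in LGMN, SIGLEC1, ADGRE1 and TLR4 it lay below that of the median gene. In all 29 genes it exceeded the SD over the 4 normals, as it did in 78.1% of all genes tested. Tumor Za had the highest mean z (each gene scaled over the 29 tumors, then averaged), at 1.84, and lay above the tumor median in 29 of 29 genes. Tumors 8_734_223, Da6 and Sn followed at 1.23, 1.13 and 0.97. Tumor 12 was the lowest at -1.07 and held the lowest value of 8 genes, and tumor Mis lay above the tumor median in none of the 29. The mean z had an r of 0.13 with the olfactory receptor share over the tumors.

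**Figure D2:**
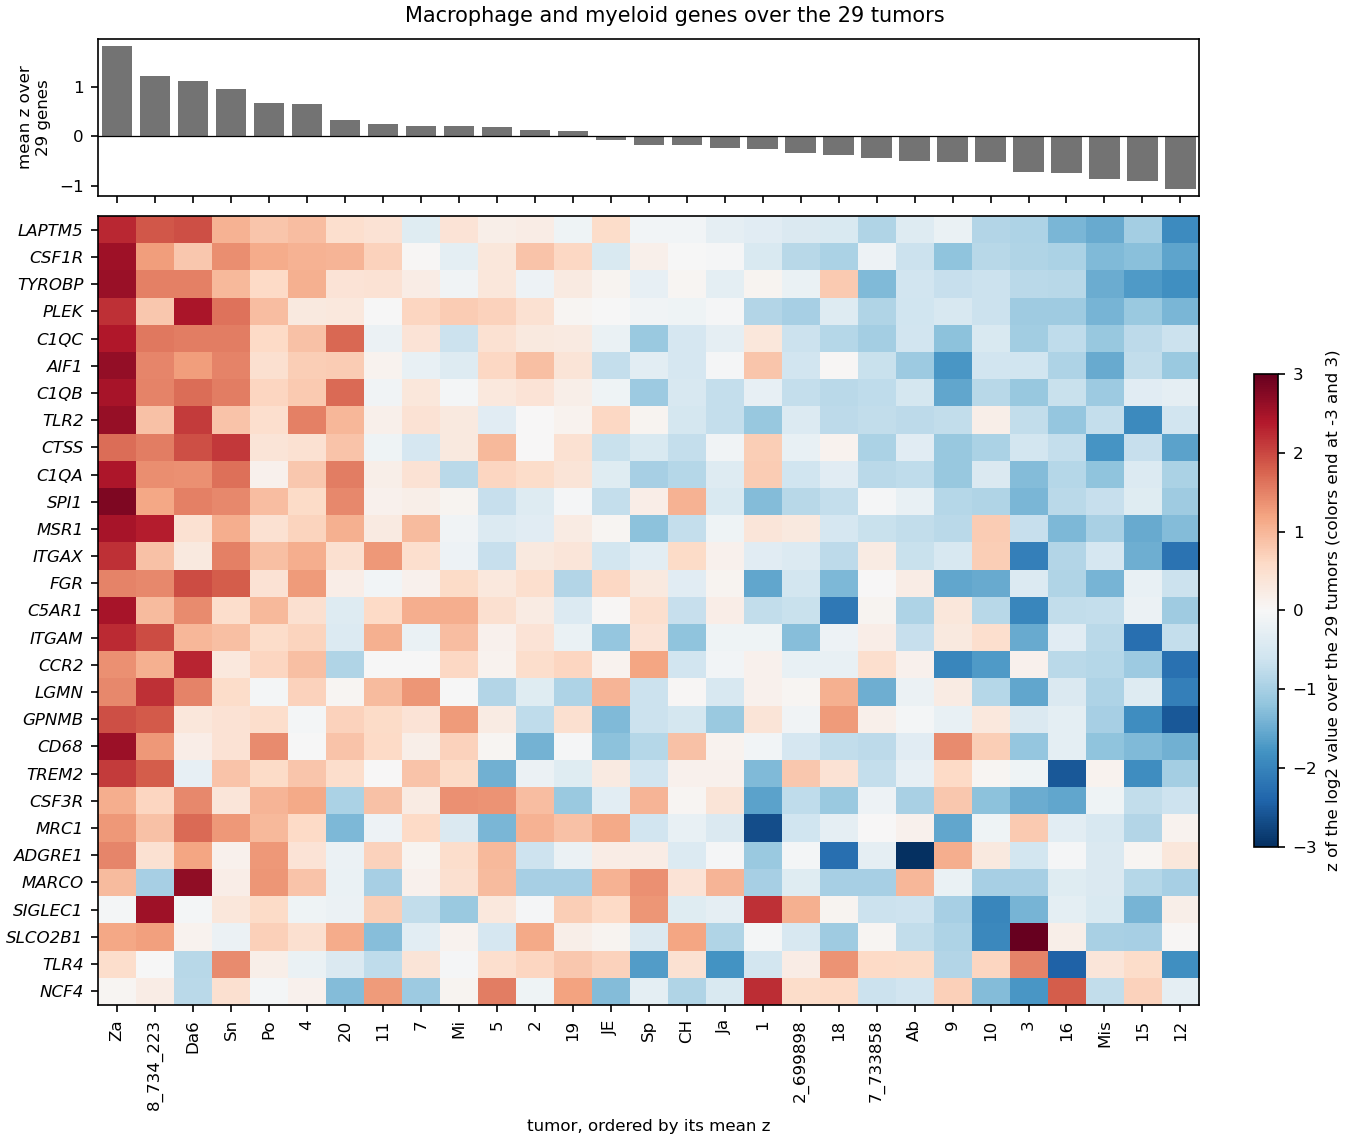
Top, the mean z of the 29 genes in each tumor. Bottom, the z of each gene (rows, ordered by correlation with the mean of the others) in each tumor (columns, ordered by mean z). The tumors on the left, led by Za with a mean z of 1.84, are red over most rows, whereas TLR4 and NCF4 in the last rows follow no such order.

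Most of the genes rose and fell together over the tumors. Across the 406 pairs Pearson's r had a median of 0.51 and was positive in 386; without tumor Za the median was 0.44. These correlations are descriptions over 29 tumors; all genes of a tumor are read from the same library, and the depth of each library is unknown. LAPTM5, CSF1R, TYROBP and PLEK followed the mean of the other genes most closely, at r = 0.96, 0.93, 0.92 and 0.92, while all genes had a median r of 0.018 with the mean of the 29, and a 95th percentile of 0.47. The 15 pairs of signalling genes had a median r of 0.63, the 10 pairs of lineage genes one of 0.55 and the 3 pairs of chemoattractant and granulocyte growth factor receptors one of 0.56. It was lower among the 21 pairs of complement and scavenger genes, at 0.35, and the 6 pairs of lysosome and lipid genes, at 0.43. The single pair of integrins had an r of 0.72 and that of pattern recognition receptors 0.080.

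Some members stood apart from the common pattern. NCF4 had an r of -0.019 with the mean of the others, ranging from -0.40 with MRC1 to 0.45 with SIGLEC1, and it was highest in tumor 1, whose mean z was -0.25. TLR4 had an r of 0.10, and SLCO2B1 one of 0.28, its highest value of 2.47 being in tumor 3 with a mean z of -0.73. MARCO and ADGRE1, both lower in tumors than in normals, reached 0.41 each. CSF3R followed C5AR1 (r = 0.82) more closely than it did the mean of the others (r = 0.58).

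**Figure D3:**
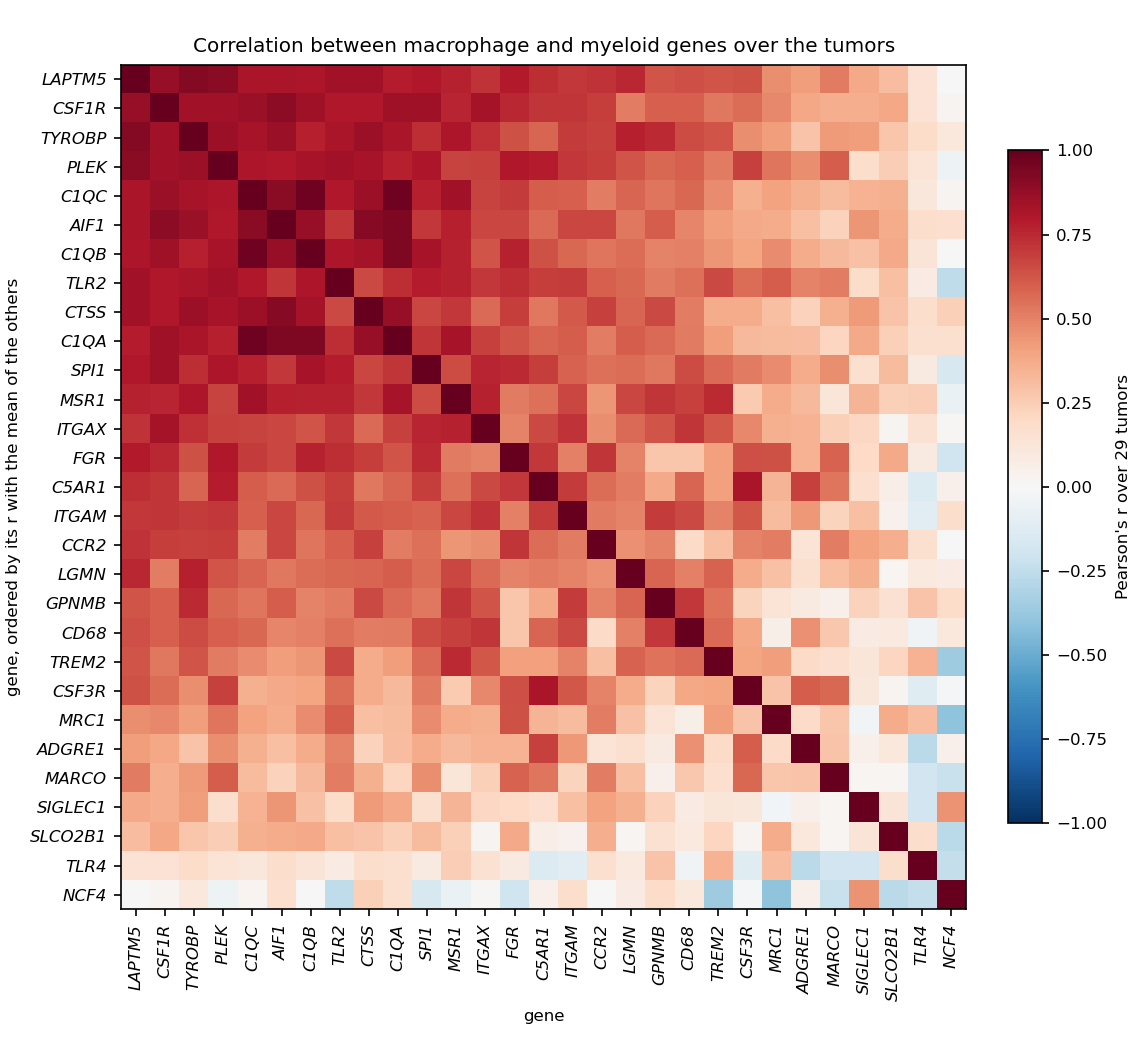
Pearson's r over the 29 tumors for each pair of the 29 genes, with rows and columns ordered by correlation with the mean of the others. The cells of C1QA, C1QB and C1QC with one another are among the darkest (C1QA with C1QC, r = 0.97), and NCF4 in the last row is mostly pale or blue (MRC1, r = -0.40) apart from SIGLEC1 (r = 0.45).

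The 10 genes outside the 29 that tracked their mean z most closely over the tumors were CD180, MYO1F, FERMT3, CYTH4, DOCK2, PTPRC, HAVCR1, ADORA3, SIRPB2 and PRKCB, with r from 0.94 for CD180 to 0.90 for PRKCB. CD180 is a toll-like receptor relative of B cells and macrophages, and FERMT3 is the integrin activator kindlin-3 of blood cells. The mean z of 10 T cell genes had an r of 0.66 with that of the myeloid genes, that of 8 B cell genes 0.61, that of 12 granulocyte genes 0.67 and that of 7 fibroblast genes 0.52. The 9 urothelial genes had an r of -0.20. Without tumor Za these values were 0.65, 0.68, 0.67, 0.44 and -0.26. Myeloid, lymphoid and granulocyte genes were thus high in many of the same tumors, and the part of each cell type was not tested.

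Partner genes were compared as 11 pairs over the 29 tumors, with two-sided permutation p-values (100000 resamples, of which 1e-05 is the smallest possible p) adjusted over the 11. The 3 C1q chains, whose genes stand side by side on chromosome 2 of the RefSeq assembly, rose and fell together: r was 0.97 for C1QA with C1QC (rho = 0.92), 0.97 for C1QB with C1QC (rho = 0.93) and 0.93 for C1QA with C1QB (rho = 0.87), each with an adjusted permutation p of 2.75e-05 for r and rho. Without tumor Za r was 0.96, 0.96 and 0.91. SPI1 and CSF1R, its known target gene, had r = 0.85 and rho = 0.82 with the same adjusted permutation p, and r = 0.79 without tumor Za. TREM2 correlated with its adaptor TYROBP at r = 0.63 (adjusted permutation p = 0.00077; rho = 0.54, p = 0.00438) and with APOE, a lipoprotein that it binds, at r = 0.63 (p = 0.000788; rho = 0.60, p = 0.00172). Without tumor Za the first was 0.54 and the second 0.53.

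The other 5 pairs join a receptor and its ligand. CSF1R had r = 0.52 with CSF1 (adjusted permutation p = 0.006; rho = 0.52, p = 0.00616) and r = 0.49 with IL34 (p = 0.00892; rho = 0.52, p = 0.00616). Leaving out the 2 tumors with the most extreme CSF1R values gave 0.54 and 0.41, and r was 0.48 and 0.44 without tumor Za. For CCR2 with CCL2 r was 0.36 (adjusted permutation p = 0.0539; rho = 0.37, p = 0.0501) and for C5AR1 with C5 it was 0.37 (p = 0.051; rho = 0.34, p = 0.075). CSF3R with CSF3 had r = 0.37 (adjusted permutation p = 0.051) and rho = 0.47 (p = 0.0125), with most tumors at the lowest value of CSF3. By the adjusted permutation p of r, 8 of the 11 pairs passed 0.05. Without tumor Za 10 passed, with CSF3R and CSF3 (r = 0.40, adjusted permutation p = 0.0371) and C5AR1 and C5 (r = 0.41, adjusted permutation p = 0.0355) added, while CCR2 and CCL2 stood at r = 0.31 (adjusted permutation p = 0.114). With the olfactory receptor share regressed out of both genes 10 also passed, adding CSF3R and CSF3 (adjusted permutation p = 0.0424) and CCR2 and CCL2 (r = 0.43, adjusted permutation p = 0.0257). These p-values set r against 0, not against other pairs, and a relation particular to partners was not tested. All 406 pairs of the 29 genes had a median r of 0.51, with the C1q pairs the highest. TREM2 had r = 0.74 with MSR1 and CSF1R r = 0.89 with AIF1. The median r of the 29 genes was 0.43 with CSF1 and 0.47 with IL34. By limma over all genes CSF1R was called with neither (adjusted p = 0.224 for CSF1 and 0.0935 for IL34).

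**Figure D4:**
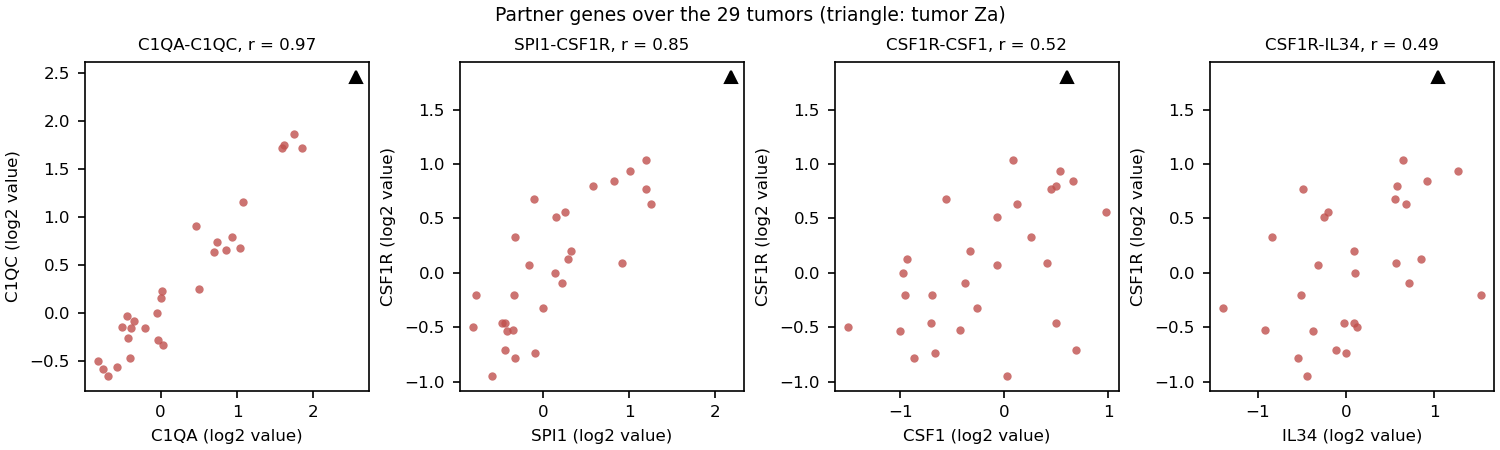
Each point is a tumor, placed by the log2 values of C1QA and C1QC, SPI1 and CSF1R, CSF1 and CSF1R, and IL34 and CSF1R, relative to each gene's median. The C1q chains lie along a line (r = 0.97) while the points of the 2 ligand panels are more scattered (r = 0.52 and 0.49), with tumor Za at the top of all 4 panels.

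The study divided its tumors into luminal and basal groups on a list of genes, called S1 genes here. No label gives a tumor's subtype, so a numeric axis was used in its place. It was the leading principal component computed from the 639 S1 genes in the table, and it held 25.1% of their variance over the tumors. It was set to fall with CDH1, the epithelial cadherin. VIM (r = 0.92), CALD1 (r = 0.93) and ZEB1 (r = 0.89) rose along it, and ESRP2 (r = -0.75) and CLDN7 (r = -0.66) fell, so its high end is rich in mesenchymal genes. Genes that the study named for its subtypes followed it less closely. The luminal genes PPARG (r = -0.33) and FOXA1 (r = -0.46) fell, and the basal genes MMP9 (r = 0.41) and PLAUR (r = 0.37) rose. How far the component matches the study's 2 groups was not tested. CD68, ITGAM and MARCO are S1 genes, picked by the study on these samples, and were left out of the counts.

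Of the remaining 26 genes, 10 rose along the S1 component and 0 fell, by limma over the 29 tumors with an adjusted p of at most 0.05. Among all genes outside S1, 5.04% rose and 1.04% fell. At an unadjusted p under 0.05, 18 rose and 0 fell, against 12% and 6.22% of all genes. The genes are correlated with one another, so here and below such counts are not of independent genes. C5AR1 rose most steadily, by 0.55 on the log2 scale per SD of the component (SE 0.087, adjusted p = 5.51e-05, r = 0.79), followed by FGR (slope 0.50, SE 0.10, adjusted p = 0.0013) and CSF3R (slope 0.88, SE 0.19, adjusted p = 0.00274). CCR2, LAPTM5, PLEK, TLR2, MRC1, SPI1 and CSF1R also rose, with adjusted p-values from 0.0166 to 0.0399. The median r of the 26 was 0.42, against 0.017 for all genes. Without tumor Za, 4 rose (C5AR1, CCR2, CSF3R and FGR), the median r was 0.36 and 4.4% of all genes rose. At an unadjusted p under 0.05, 13 rose without Za, against 11.2% of all genes. The genes no longer called kept positive slopes, from 0.28 for CSF1R (0.35 with Za) to 0.54 for MRC1 (0.59 with Za). With the 2 tumors at the extremes of the axis left out, 6 rose. The 4 no longer called in the latter case had slopes of 0.35 for CSF1R (0.35 in all tumors, adjusted p = 0.074, limma), 0.40 for SPI1 (0.39, adjusted p = 0.0577), 0.46 for PLEK (0.47, adjusted p = 0.0586) and 0.56 for MRC1 (0.59, adjusted p = 0.0879). The C1q chains and CTSS were not called along the component, with r of 0.29 (C1QA), 0.45 (C1QB), 0.38 (C1QC) and 0.26 (CTSS).

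The levels of 3 ligands were used in the same way, over all 29 genes. With IL34, 6 genes rose: MRC1 (slope 0.67 per SD, SE 0.16, adjusted p = 0.0179, limma), C5AR1, TLR2, LAPTM5, FGR and PLEK; 2.81% of all genes did. IL34 itself had an r of 0.76 with the S1 component, and the relations with IL34 and with the component were not tested apart. With CCL2, 7 genes rose: C1QC (slope 0.58, SE 0.12, adjusted p = 0.0238), TYROBP, LAPTM5, PLEK, CSF1R, MSR1 and AIF1, against 0.477% of all genes. Without tumor Za, whose CCL2 value was 2.41, the count was 1 with IL34 (MRC1, with 1.97% of all genes) and the slopes of the other 5 stayed positive, for example 0.40 for FGR (0.43 with Za, adjusted p = 0.0579, limma) and 0.37 for C5AR1 (0.43 with Za, adjusted p = 0.0532). The median r with IL34 was then 0.41, and 18 genes rose at an unadjusted p under 0.05, against 11.1% of all genes. The count without Za was 0 with CCL2 by limma (lowest adjusted p = 0.0991, with 0.0409% of all genes called). At an unadjusted p under 0.05, 20 genes rose with CCL2 without Za, against 6.79% of all genes, and the median r was 0.44. The 29 genes are correlated with one another (median r of their pairs 0.44 without Za), so these counts are not of independent genes. Slopes of the genes no longer called stayed positive, for example 0.49 for C1QC (0.58 with Za), 0.47 for LAPTM5 (0.54 with Za) and 0.48 for PLEK (0.55 with Za). Other alternatives moved the counts up. With the 2 tumors farthest from each ligand's median left out, 11 genes rose with IL34 and 13 with CCL2. With ranks of the ligand, 7 and 11 did.

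With CSF1, 0 of the 29 genes were called by limma (lowest adjusted p = 0.059, CD68), while 20 rose at an unadjusted p under 0.05, against 8.13% of all genes, and 19 passed an unadjusted permutation p under 0.05; 0.00454% of all genes, a single gene, were called. Without tumor Za the count was also 0 by limma (lowest adjusted p = 0.132), with 16 genes rising at an unadjusted p under 0.05, against 7.32% of all genes, and a median r of 0.38. As above, the 29 genes are correlated with one another, so these counts are not of independent genes. CD68 had the highest r with CSF1, at 0.73, and was called in the DESeq-normalized table (adjusted p = 0.0352) and with ranks of CSF1 (adjusted p = 0.0414). The median r of the 29 genes was 0.43 with CSF1, 0.47 with IL34 and 0.51 with CCL2, where all genes had medians of 0.047, 0.021 and 0.033. CCR2 and MRC1 had r of 0.024 and 0.041 with CSF1 but 0.43 and 0.61 with IL34; the difference between these correlations was not tested. CSF1 and IL34 had an r of 0.10 with each other.

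**Figure D5:**
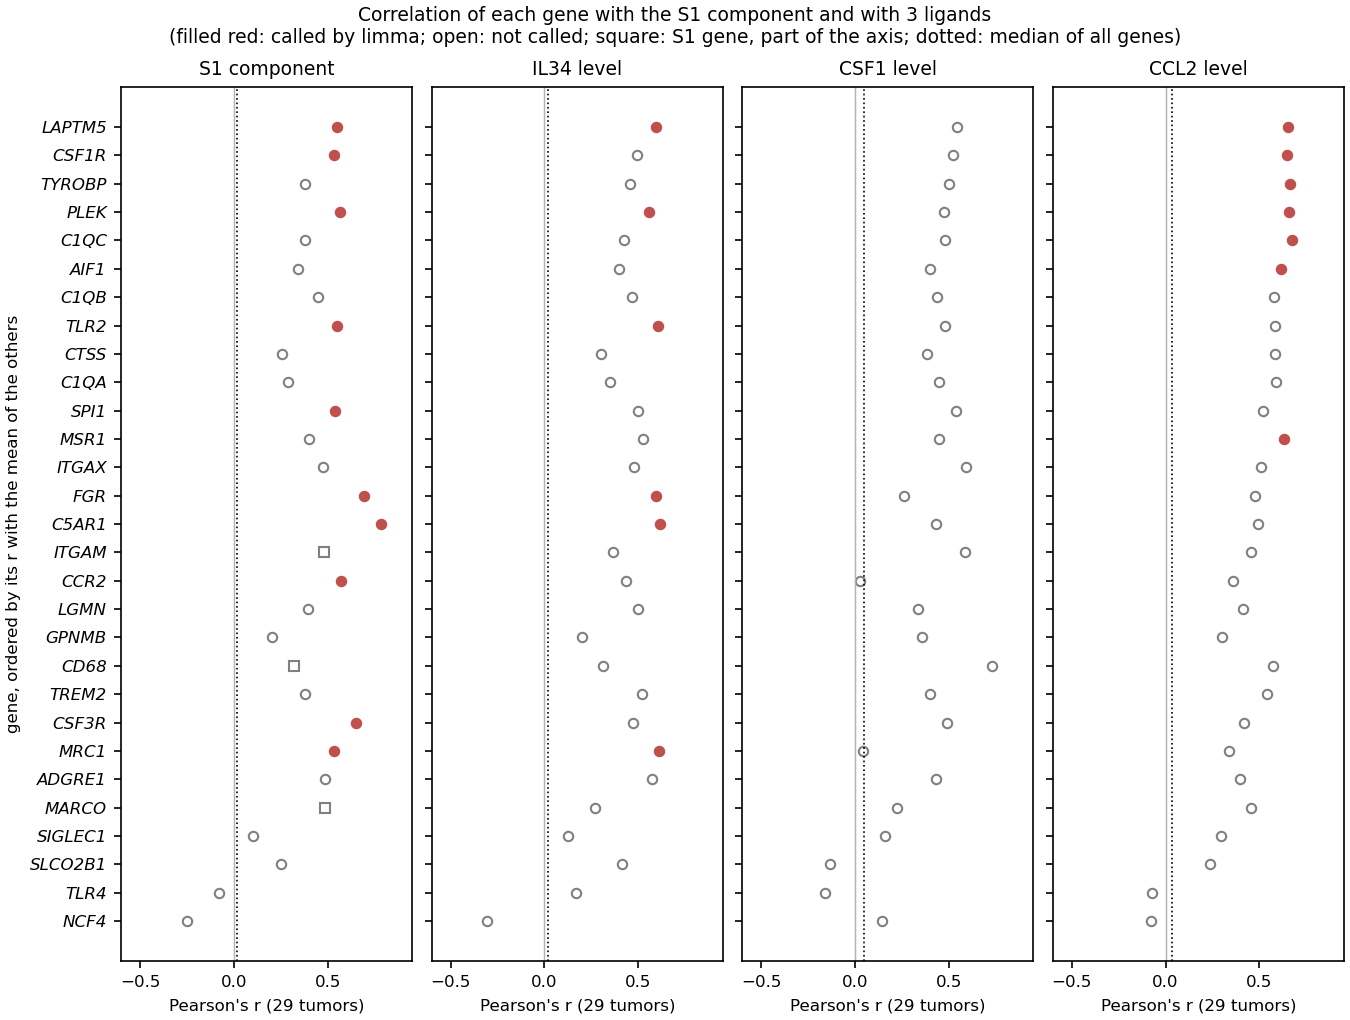
Pearson's r over 29 tumors of each gene with the S1 component and with the levels of IL34, CSF1 and CCL2; filled red points passed limma at an adjusted p of at most 0.05, squares are S1 genes and the dotted line is the median of all genes. Red points number 10, 6, 0 and 7 from left to right, and most points lie to the right of the dotted line; NCF4, in the last row, lies to its left in the panels of the S1 component, IL34 and CCL2.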

How the data were processed

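Paired-end reads from ribosomal RNA-depleted total RNA were aligned by the authors to CanFam3.1 with COBWeb in Strand NGS and quantified over annotated genes. The authors deposited log2 values in 2 tables, normalized by TMM and by DESeq and centred on each gene's median. No counts were used, so the depth of each library is unknown and no interval on counting error could be given. The last line of each file (1 per file) was incomplete and was left out. Members were matched by symbol; all 29 were also found in the RefSeq gene table. Genes at their floor, a lowest value shared by several samples, in all but 3 or fewer samples were not tested. Tumors and normals, and tumors over each covariate (scaled to SD 1), were analysed in R 4.3.3 by limma, version 3.58.1 (eBayes with a mean-variance trend; Benjamini-Hochberg over all genes), and pairs of genes by permutation in Python 3.11.15; both were tested on simulated data. The members, lists and tests were chosen with earlier results of these data known; every member in the table is named, with the gene of the largest called rise and fall of each myeloid list and the 10 symbols nearest to the members' mean. The choice of tumor Za as an alternative was made after its values were seen. Each tumor came from a different dog; the sources used here do not say so of each normal, so p-values measure the spread between these samples.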

Additional observations from a re-analysis of the deposited data

Results flagged for a closer look

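The 4 normals were examined for an outlying sample in each of the 29 genes, and 2 genes had one by Dixon's test, where chance gives about 1 in 20 groups. In CTSS, normal D lay at -1.60, below the other normals at -0.52, -0.47 and -0.46, and the gap was 0.94 of the range of the 4. In MSR1, normal A lay at 0.93, above the others at 0.41, 0.38 and 0.32, with a gap of 0.85 of the range. Normal D bears on a call, as CTSS was not called without it (log2 fold change 0.76, adjusted p = 0.145, limma), whereas MSR1 was not called with or without normal A.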

How the results depend on the processing

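Of the 6 genes called between tumors and normals, CD68 and ADGRE1 were called under every alternative run. The number higher in tumors, 3 in the main analysis, was 1 in the DESeq-normalized table, 1 without tumor Za and 5 with no fold threshold, and ran from 1 to 3 with each normal left out. The median log2 fold change of all genes was -1.11 in the DESeq-normalized table against -0.84. The number lower, 3, was 1 with the olfactory receptor share as a covariate, which also ended the calls of CTSS and LAPTM5 and added one for NCF4. The share was at least 99.4% in the normals and had a median of 20.8% in the tumors. It is thus bound up with the group, and that model separates the share from the group poorly. Along the S1 component 10 genes rose, against 6 without the 2 tumors farthest from its median and 4 without tumor Za. With CSF1 the count of 0 became 1 (CD68) in the DESeq-normalized table and with ranks. With IL34 the count of 6 became 11 without the 2 farthest tumors and 1 without tumor Za. With CCL2 the count of 7 became 11 with ranks, 13 without the 2 farthest tumors and 0 without tumor Za. The cause of these shifts was not tested. Among values of single genes, 345 of 377 log2 fold changes, 624 of 678 slopes and 40 of 44 correlations kept their side of the threshold and their direction, and none of the called values changed sign; 18 log2 fold changes and 7 slopes that were not called did. No paired analysis was possible because normals and tumors come from different dogs and share no replicate number. Only 4 normals limit the precision of each comparison with tumors, and without counts a low value cannot be told from few reads.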
